A study of Mus musculus with 19 samples.

Results

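Prostaglandins are short-range lipid signals, and 10 mouse genes for making, removing and sensing them are described here: the phospholipase gene Pla2g2e, the cyclooxygenase genes Ptgs1 and Ptgs2, the terminal synthase genes Ptges, Ptgds and Ptgis, the breakdown gene Hpgd, and the prostaglandin E2 receptor genes Ptger2, Ptger3 and Ptger4. They were found by gene symbol among the 24343 symbols of the deposited tables, and all 10 were present. The genes had been selected on their measured FPKM in these same libraries, over populations and genotypes, so their levels and differences are a description. The fit over all genes includes them, and the count it calls is given below beside the share of all genes called, with no p-value for a member and nothing read from it. Expression had been measured by RNA sequencing of stromal, basal and luminal cells that were flow sorted from the anterior prostates of mice. The Lgr5-DTR-eGFP mice carry a diphtheria toxin receptor fused to a green fluorescent protein at the Lgr5 gene, so that toxin kills cells that use Lgr5, and they had received the toxin. They gave 4 stromal, 3 basal and 3 luminal libraries, and wild type control mice gave 3 libraries of each population.

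The wild type mice are named in the labels as C57BL/6 animals from a commercial breeder, while the Lgr5-DTR-eGFP line (here Lgr5-DTR) came from another laboratory. The labels do not say whether the wild type mice received the toxin, how old the animals were, or whether each library came from its own animal. The spread between libraries may therefore be partly technical, and it is the only spread that the p-values below measure. Toxin treatment, genotype and the source of the mice cannot be told apart in these groups. In a sorted bulk sample, fewer cells of a type and less RNA per cell cannot be told apart either.

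Each of the 19 libraries had between 5.26 and 9.38 gigabases on annotated transcripts, by the deposited coverage, and 9209 to 10819 genes reached 1 FPKM, a level scaled to transcript length and to sequencing depth. In the stroma Lgr5 itself stood at 0.916 ± 0.338 FPKM in the 4 Lgr5-DTR libraries and at 44.2 ± 29.0 FPKM in the 3 wild type libraries (mean and SD). Since the receptor construct sits at Lgr5, loss of cells and a disrupted allele cannot be told apart in that value. The sorted populations carried their defining markers. The summed FPKM of 7 fibroblast markers (Col1a1, Dcn, Lum and others) was 2744 to 3381 in Lgr5-DTR stromal libraries and 5368 to 5643 in wild type stromal libraries. The summed FPKM of 6 basal markers was 5696 to 6172 in Lgr5-DTR basal libraries and 7842 to 8835 in wild type basal libraries, and that of 7 luminal markers was 14531 to 18380 in Lgr5-DTR luminal libraries and 23966 to 26788 in wild type luminal libraries. Luminal markers were also present in the basal sort, at 3584 to 4834 FPKM in Lgr5-DTR and 3602 to 4297 FPKM in wild type libraries. Of the 19 tables, 7 carried a low-data status on 424 transcripts each that the other 12 lacked, and no label or header gives the reason. They were 2 of 3 Lgr5-DTR basal, 1 of 3 Lgr5-DTR luminal, 1 of 4 Lgr5-DTR stromal, 1 of 3 wild type basal, 2 of 3 wild type luminal and 0 of 3 wild type stromal libraries. Their tables also held 2552 to 3112 transcripts whose FPKM lay above the upper limit given for it, against 0 to 3 in the other 12. Among the member values, 29 of 209 lay above that limit, by a factor of at most 1.14, and all 29 were in these 7 libraries. In Lgr5-DTR stromal replicate 3 they included Pla2g2e (9.27 FPKM, limit 8.11) and Ptgds (5.48 FPKM, limit 5.01).

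Prostanoids are made from arachidonic acid, which phospholipases release from membranes. The cyclooxygenases, encoded by Ptgs1 in many tissues at rest and by the inducible Ptgs2, convert it to prostaglandin H2, and terminal synthases turn that into prostaglandin E2, prostaglandin D2, prostacyclin and related products. Prostaglandin E2 acts through 4 G protein-coupled receptors, of which those encoded by Ptger2 and Ptger4 raise cyclic AMP, the one encoded by Ptger3 mainly lowers it, and the one encoded by Ptger1 raises calcium. Prostaglandins are abundant in seminal fluid, which was not measured here.

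The members lie on 7 chromosomes, and 4 of the 10 (Ptgs1, Ptges, Ptgds and Ptgis) lie on chromosome 2, at 36230426 to 36252271, 30889471 to 30903297, 25466712 to 25469749 and 167203196 to 167240537 in the mm10 coordinates of the deposited tables. The others lie at chromosome 1, 150100124 to 150108012 (Ptgs2), chromosome 3, 157566892 to 157644758 (Ptger3), chromosome 4, 138877942 to 138882814 (Pla2g2e), chromosome 8, 56294552 to 56321046 (Hpgd), chromosome 14, 44988111 to 45003820 (Ptger2), and chromosome 15, 5233399 to 5244187 (Ptger4). No annotated gene overlapped any of them in those coordinates. Each was represented by 1 transcript except Ptger4, which had 2.

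The 250 bases upstream of the transcript start, taken from RefSeq on GRCm38.p6, are given for 4 members and read 5′ to 3′ on the strand of the gene. Pla2g2e (plus strand) and Ptgds (minus strand) are shown because they had the largest stromal differences, in opposite directions, and Ptges (minus strand) and Ptger3 (plus strand) because both were lower in basal and in luminal cells. Capitals mark matches to 3 of the motifs searched: TGANTCA, the AP-1 site, GGGCGG, the GC box, and TGTTCT, the half-site of the steroid receptors that bind androgen, progesterone or glucocorticoid, each on either strand.
Pla2g2e (chr4:138877692-138877941): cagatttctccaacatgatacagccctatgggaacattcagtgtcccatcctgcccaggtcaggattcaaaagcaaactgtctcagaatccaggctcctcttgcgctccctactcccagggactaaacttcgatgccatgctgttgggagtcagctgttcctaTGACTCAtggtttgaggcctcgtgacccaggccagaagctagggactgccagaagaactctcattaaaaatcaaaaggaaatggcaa
Ptgds (chr2:25469750-25469999): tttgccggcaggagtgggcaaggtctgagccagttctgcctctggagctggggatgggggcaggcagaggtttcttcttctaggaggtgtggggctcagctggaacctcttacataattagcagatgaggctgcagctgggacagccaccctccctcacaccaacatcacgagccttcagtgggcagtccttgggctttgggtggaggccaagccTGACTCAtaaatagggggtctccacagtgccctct
Ptges (chr2:30903298-30903547): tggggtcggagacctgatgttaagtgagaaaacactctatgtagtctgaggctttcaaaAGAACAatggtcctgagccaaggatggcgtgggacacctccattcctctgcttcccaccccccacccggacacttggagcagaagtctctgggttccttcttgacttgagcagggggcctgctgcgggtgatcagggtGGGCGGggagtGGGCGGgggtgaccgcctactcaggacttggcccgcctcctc
Ptger3 (chr3:157566626-157566875): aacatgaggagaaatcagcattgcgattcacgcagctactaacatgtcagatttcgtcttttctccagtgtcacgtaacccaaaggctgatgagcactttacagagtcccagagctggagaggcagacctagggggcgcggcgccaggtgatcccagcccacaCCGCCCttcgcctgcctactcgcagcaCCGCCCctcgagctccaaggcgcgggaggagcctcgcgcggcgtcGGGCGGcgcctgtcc

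Windows were found for 9 of the 10 members, all but Ptgis, whose promoter is not analysed here. TGANTCA was present in 2 of the 9, Pla2g2e and Ptgds, at 87 to 81 and 35 to 29 bases before the start, against 6.75% of 32851 windows of the same length across the genome. The GC box was present in 5 of 9 (Ptgs2, Ptges, Hpgd, Ptger3 and Ptger4), against 32.7% of all windows, and the half-site TGTTCT in 3 of 9 (Ptgs1, Ptges and Ptger2), against 16.1%. None of the 9 held the TATA box, TATAAA, which 12.4% of all windows held. Nor did any hold the half-site of the cyclic AMP response element, which reads TGACG and was present in 17.8% of all windows. The E-box was likewise present in 0 of 9 and in 6.02% of all windows, searched as CACGTG. The Ptgs2 window ended at 150100030, short of the start of its deposited transcript at 150100124. That of Ptger3 ended at 157566875, short of 157566892. The bases between were not searched, so absence of a motif holds for the windows only. The RefSeq spans of some genes reached upstream into or past their windows. They reached 25470110 for Ptgds, 30931020 for Ptges, 36216742 for Ptgs1, 138877911 for Pla2g2e and 157566821 for Ptger3. Those windows thus lie before the start used here, not before the whole annotated gene. A match is a description of the letters only. The Ptger3 window had a GC content of 62% and the Pla2g2e window one of 49.6%, with a median of 52.4% over all windows.

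**Figure D1:**
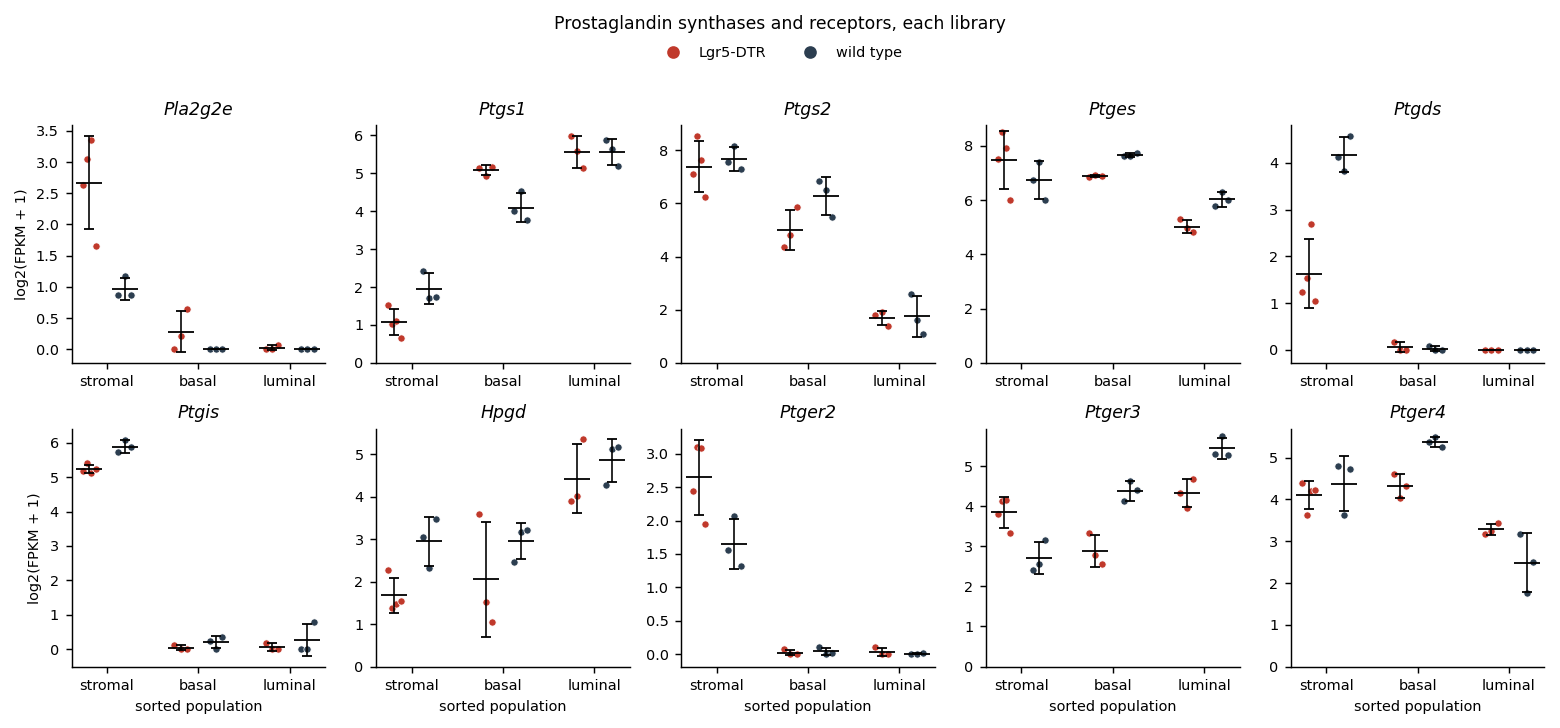
Expression of the 10 genes in each of the 19 libraries, as log2(FPKM + 1), by sorted population, with Lgr5-DTR libraries left of wild type libraries. Points are libraries, and bars are the mean and SD of each group (n = 4 for Lgr5-DTR stromal cells, n = 3 for the others). Ptgds, Ptgis, Ptger2 and Pla2g2e sit near 0 in both epithelial populations, Ptgs1 is highest in luminal cells, and Ptgs2 is lowest there.

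In wild type prostates Pla2g2e, which encodes a secreted phospholipase A2 and so acts at substrate release, was low even in the stroma, at 0.971 ± 0.246 FPKM (SD, n = 3), and was listed at 0 in all 6 basal and luminal libraries. The 2 cyclooxygenases divided the populations between them. Ptgs1 averaged 3.00 ± 1.20 FPKM in stromal, 16.5 ± 4.91 FPKM in basal and 47.4 ± 11.2 FPKM in luminal cells (SD, n = 3 each). Ptgs2 ran the other way, with 208 ± 67.3 FPKM in stromal, 82.4 ± 35.8 FPKM in basal and 2.70 ± 2.01 FPKM in luminal cells. No 2 of the 3 wild type populations overlapped in either gene.

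Of the terminal synthases in wild type cells, Ptges, the inducible prostaglandin E synthase, was expressed in all 3 populations, and the other 2 were expressed in the stroma. Ptges averaged 113 ± 52.7 FPKM in stromal, 202 ± 9.47 FPKM in basal and 64.7 ± 12.3 FPKM in luminal cells, and the stromal range reached into the luminal one. Ptgis, the prostacyclin synthase, averaged 58.6 ± 7.52 FPKM in stromal cells, and no basal or luminal library of either genotype was above 0.731 FPKM. Ptgds, the lipocalin-type prostaglandin D synthase, averaged 17.4 ± 4.88 FPKM in wild type stromal cells and was listed at 0 in all 6 luminal libraries and in 4 of the 6 basal ones. Ptgis therefore made up 32.1% and Ptgds 10.2% of the summed FPKM of these 3 synthases in wild type stroma, and Ptges made up 99.9% of it in wild type basal cells and 99.6% in wild type luminal cells.

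Hpgd, which encodes the dehydrogenase that inactivates prostaglandins, was highest in luminal cells. It averaged 7.10 ± 3.03 FPKM in wild type stromal cells, 6.93 ± 2.11 FPKM in wild type basal cells and 29.0 ± 9.21 FPKM in wild type luminal cells, and the stromal and basal ranges overlapped. Luminal cells thus had the lowest mean Ptges and the highest Hpgd of the 3 wild type populations.

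The prostaglandin E2 receptors also differed by population. Ptger3 averaged 5.71 ± 1.98 FPKM in wild type stromal, 20.1 ± 3.54 FPKM in basal and 43.2 ± 8.43 FPKM in luminal cells, with no overlap. Ptger4 averaged 21.2 ± 8.48 FPKM in wild type stromal, 40.7 ± 3.32 FPKM in basal and 5.07 ± 2.86 FPKM in luminal cells, again with no overlap. Ptger2 was a stromal gene, at 2.21 ± 0.871 FPKM in wild type stromal cells and at most 0.0753 FPKM in any basal or luminal library of either genotype.

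Over the 9 wild type libraries, 9 of the 10 members passed the filter of 1 FPKM in at least 3 libraries, all but Pla2g2e. Calls here and below are those of limma with a Benjamini-Hochberg adjusted p of 0.05 over all genes tested. Between stromal and basal cells 8 of the 9 were called, where 57% of the 11565 genes tested were. Between stromal and luminal cells 9 of 9 were called, where 67.8% of genes were, and between basal and luminal cells 6 of 9, where 62.3% were. Groups did not overlap in 8, 8 and 6 of the 9 in the same order, and in 63.7%, 69.5% and 69.4% of all genes. Nothing is read from these counts, since the populations entered the choice of the genes and Ptgds, Ptgis and Ptger2 passed the filter through the stromal libraries alone.

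In stromal cells of Lgr5-DTR mice, the levels of Pla2g2e and Ptger3 were higher than in every wild type stromal library, and those of Ptgs1, Ptgds, Ptgis and Hpgd were lower than in every one. Pla2g2e stood at 5.17, 7.26, 9.27 and 2.15 FPKM in the Lgr5-DTR stromal libraries and at 0.824, 1.26 and 0.833 FPKM in the wild type stromal libraries. All 4 Lgr5-DTR values lay above the highest wild type value, and replicate 4 was the lowest of them. On the log2(FPKM + 1) scale, used for every log2 difference below and one that understates the change of low genes, the difference was 1.70 (SE 0.36), and the ratio of the mean FPKM was 6.14. Ptgds stood at 1.34, 1.92, 5.48 and 1.06 FPKM in Lgr5-DTR stromal libraries and at 16.5, 13.1 and 22.7 FPKM in wild type stromal libraries. The 2 genotypes did not overlap, and the log2 difference was -2.54 (SE 0.37), with a mean 7.11-fold higher in wild type. Ptgds made up 1.03% ± 0.671 of the summed FPKM of Ptges, Ptgds and Ptgis in Lgr5-DTR stroma and 10.2% ± 5.32 in wild type stroma.

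The other 4 members whose stromal groups did not overlap differed by less. Ptgis stood at 35.5, 41.4, 33.6 and 36.4 FPKM in Lgr5-DTR stromal libraries and at 51.7, 66.6 and 57.3 FPKM in wild type ones (log2 difference -0.66, SE 0.19). Ptgs1, already low in the stroma, stood at 1.87, 1.04, 1.14 and 0.589 FPKM in Lgr5-DTR libraries and at 4.38, 2.26 and 2.34 FPKM in wild type libraries (log2 difference -0.88, SE 0.28). Hpgd stood at 3.85, 1.62, 1.79 and 1.93 FPKM in Lgr5-DTR libraries, where replicate 1 was apart from the other 3, and at 7.25, 3.99 and 10.05 FPKM in wild type libraries (log2 difference -1.27, SE 0.32). The wild type level of Hpgd thus began just above the highest Lgr5-DTR value.

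Receptor genes in the stroma differed in direction. Ptger3 stood at 12.9, 16.5, 16.9 and 9.03 FPKM in Lgr5-DTR stromal libraries and at 4.28, 4.88 and 7.96 FPKM in wild type stromal libraries (log2 difference 1.15, SE 0.28). Every Lgr5-DTR value was above every wild type value. Ptger2 stood at 4.41, 7.63, 7.53 and 2.85 FPKM in Lgr5-DTR libraries and at 1.94, 3.18 and 1.51 FPKM in wild type libraries, and only Lgr5-DTR replicate 4 fell within the wild type range (log2 difference 1.00, SE 0.32). Ptger4 stood at 20.1, 11.3, 17.3 and 17.6 FPKM in Lgr5-DTR libraries and at 26.7, 11.4 and 25.4 FPKM in wild type libraries, with overlapping ranges (log2 difference -0.27, SE 0.31). As shares of the summed FPKM of Ptger1 to Ptger4, Ptger3 made up 35.9% ± 6.59 in Lgr5-DTR stroma (SD, n = 4) and 18.6% ± 6.07 in wild type stroma (SD, n = 3). The level of Ptger1 in these sums is uncertain. Ptger4 made up 44.1% in Lgr5-DTR and 64.6% in wild type stroma, and Ptger2 14.4% in Lgr5-DTR and 8.22% in wild type stroma.

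The 2 most abundant stromal members varied widely between libraries. Ptgs2 stood at 136, 376, 198 and 74.8 FPKM in Lgr5-DTR stromal libraries and at 186, 284 and 155 FPKM in wild type stromal libraries. Ptges stood at 181, 364, 240 and 62.6 FPKM in Lgr5-DTR stromal libraries and at 107, 168 and 63.3 FPKM in wild type stromal libraries. Both genes overlapped between the genotypes, and in both Lgr5-DTR replicate 2 was the highest library and Lgr5-DTR replicate 4 the lowest. The log2 difference was -0.28 (SE 0.47) for Ptgs2, and 0.10 without Lgr5-DTR replicate 4, and it was 0.76 (SE 0.56) for Ptges.

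Of the 10 members tested in stromal cells, 1 was called higher (Pla2g2e) and 1 lower (Ptgds), where 1.17% of the 10689 genes tested were called in either direction, 0.0655% higher and 1.1% lower. Groups that did not overlap were seen in 6 of 10 members, 2 higher and 4 lower, and in 11.2% of all genes, 1.8% higher and 9.39% lower. These counts describe genes chosen with these values in view. The call of Pla2g2e, which passed the filter through the Lgr5-DTR libraries, was lost without any single library other than Lgr5-DTR replicate 4, at log2 differences of 1.47 to 1.80, after quantile scaling (1.81) and with the low-data set as a covariate (1.47), and that of Ptgds without wild type replicate 3 (-2.34). Both were lost when no filter on low values was used. Ptger2 and Ptger3 were called without Lgr5-DTR replicate 4, at 1.23 and 1.32. That library had the lowest Lgr5-DTR level of both genes, so nothing is read from these 2 calls. The summed fibroblast markers were lower in the Lgr5-DTR stromal libraries (above), with all 7 detected in both groups and with Lum and Pdgfra overlapping between them. Smooth muscle markers summed to 311 to 432 FPKM in Lgr5-DTR and 203 to 296 FPKM in wild type stromal libraries. Among them, the mean of Des was lower in Lgr5-DTR (53.9 FPKM) than in wild type stroma (72.1 FPKM). That of the barely expressed Lmod1 was 0.533 FPKM in Lgr5-DTR and 0.561 FPKM in wild type stroma. The part of these shifts in the member values was not tested. The 7 mast cell markers summed to 0.510 to 1.37 FPKM in Lgr5-DTR and 0.856 to 1.16 FPKM in wild type stroma. Among them Cpa3 was at 0 in all groups. Macrophage markers summed to 12.7 to 24.9 FPKM in Lgr5-DTR and 10.4 to 27.9 FPKM in wild type stroma.

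**Figure D2:**
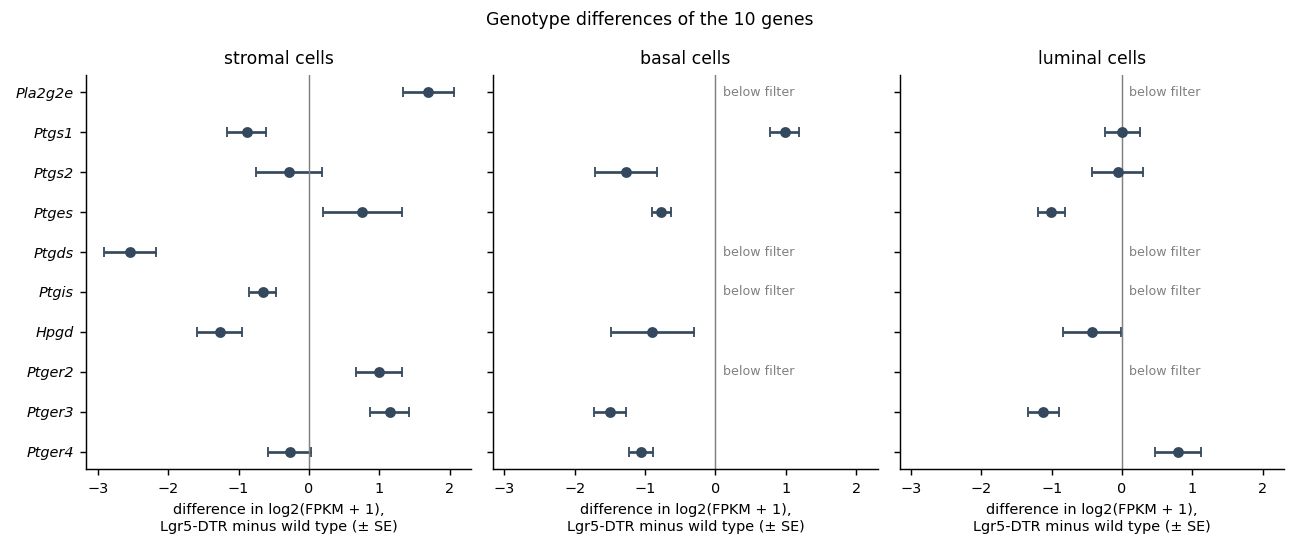
Log2 difference of each of the 10 genes, Lgr5-DTR minus wild type, with its SE, in stromal, basal and luminal cells. Ptger3 lies at 1.15 in stromal cells, -1.49 in basal cells and -1.12 in luminal cells, Ptges is below 0 in both epithelial populations, and 4 genes were below the expression filter in basal and luminal cells.

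In basal cells of Lgr5-DTR mice, Ptgs1 was higher and Ptges, Ptger3 and Ptger4 were lower than in every wild type basal library. Ptgs1 stood at 34.2, 29.6 and 35.1 FPKM in Lgr5-DTR basal libraries and at 15.0, 22.0 and 12.5 FPKM in wild type basal libraries (log2 difference 0.99, SE 0.21). Ptges, with almost no spread in Lgr5-DTR libraries at 115, 120 and 118 FPKM, stood at 198, 195 and 213 FPKM in wild type libraries (log2 difference -0.77, SE 0.13). Both sets of ranges were clear of each other, in opposite directions.

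The 2 expressed receptors were both lower in Lgr5-DTR basal cells. Ptger3 stood at 9.07, 5.92 and 4.89 FPKM in Lgr5-DTR basal libraries and at 16.5, 23.6 and 20.3 FPKM in wild type basal libraries (log2 difference -1.49, SE 0.23). Ptger4 stood at 23.3, 15.5 and 19.03 FPKM in Lgr5-DTR basal libraries and at 40.5, 44.1 and 37.5 FPKM in wild type basal libraries (log2 difference -1.06, SE 0.17). The summed FPKM of the 4 prostaglandin E2 receptor genes was 27.4 ± 5.91 in Lgr5-DTR basal cells and 62.1 ± 6.07 in wild type basal cells (SD, n = 3 each), and the ranges, 23.1 to 34.2 and 58.0 to 69.1, did not overlap. The balance between the receptors was closer, with Ptger4 at 70.4% ± 5.03 of that sum in Lgr5-DTR and 65.6% ± 3.58 in wild type basal cells, ranges that overlapped. Of the Ptger4 FPKM, the transcript NM_008965 made up 61.8% ± 2.48 in Lgr5-DTR basal cells and 53.1% ± 1.63 in wild type basal cells, a split that Cufflinks estimates.

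Ptgs2 stood at 19.5, 26.8 and 56.7 FPKM in Lgr5-DTR basal libraries and at 115, 88.9 and 43.8 FPKM in wild type basal libraries (log2 difference -1.28, SE 0.44). Its groups overlapped through Lgr5-DTR replicate 3 and wild type replicate 3. The share of Ptgs2 in the summed FPKM of both cyclooxygenases did not overlap, at 36.3% to 61.7% in Lgr5-DTR basal libraries (mean 48.5% ± 12.7) and 77.8% to 88.4% in wild type basal libraries (mean 82.1% ± 5.58). Lgr5-DTR basal cells held Ptgs2 and Ptgs1 at mean levels of 34.3 ± 19.7 and 33.0 ± 2.95 FPKM. In the other populations the share overlapped between the genotypes, at 99.3% ± 0.459 in Lgr5-DTR and 98.5% ± 0.757 in wild type stromal cells, and at 4.58% ± 0.840 in Lgr5-DTR and 4.98% ± 2.601 in wild type luminal cells. Hpgd stood at 11.0, 1.84 and 1.07 FPKM in Lgr5-DTR basal libraries and at 4.51, 7.96 and 8.33 FPKM in wild type basal libraries, and replicate 1 of the Lgr5-DTR group was above all wild type values while the other 2 were below them (log2 difference -0.90, SE 0.59). Pla2g2e was listed at 0 in 1 Lgr5-DTR basal library and reached 0.153 and 0.560 FPKM in the other 2, against 0 in all 3 wild type basal libraries.

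Of the 6 members tested in basal cells, 1 was called higher (Ptgs1) and 3 lower (Ptges, Ptger3 and Ptger4), where 11% of the 9755 genes tested were called, 6.5% higher and 4.46% lower. Groups did not overlap in those 4, and in 31.1% of all genes tested, 17.5% higher and 13.7% lower. The call of Ptgs1 was lost with no filter and on leaving out Lgr5-DTR replicate 2 or 3 or wild type replicate 1 or 3, at 0.82 to 1.06, and that of Ptges on leaving out Lgr5-DTR replicate 2 (-0.78), on leaving out wild type replicate 3 (-0.74), and in one fit of all 19 libraries. Without Lgr5-DTR replicate 3 Ptgs2 was called (-1.70), and without Lgr5-DTR replicate 1 Hpgd was called (-1.67). In each gene the library left out was the Lgr5-DTR one that reached into or above the wild type range. Nothing is read from these calls. The fit with the 7 libraries of low-data status as a covariate gave 0.84 for Ptgs1, -0.76 for Ptges, -1.58 for Ptger3 and -1.16 for Ptger4. Of the 6 basal markers, Krt14, Krt15, Trp63 and Dst were lower in every Lgr5-DTR basal library than in every wild type one, while Krt5 (417 to 461 FPKM in Lgr5-DTR and 307 to 381 FPKM in wild type) and Col17a1 (181 to 285 FPKM in Lgr5-DTR and 86.5 to 152 FPKM in wild type) were higher. The summed luminal markers overlapped, but Tmprss2 (27.2 to 41.3 FPKM in Lgr5-DTR and 11.51 to 15.5 FPKM in wild type) and Cd24a (263 to 368 FPKM in Lgr5-DTR and 195 to 223 FPKM in wild type) did not. In the same sort the summed fibroblast markers were 313 to 637 FPKM in Lgr5-DTR and 732 to 882 FPKM in wild type, the smooth muscle markers 10.7 to 13.9 FPKM in Lgr5-DTR and 32.3 to 41.9 FPKM in wild type, and the endothelial markers 11.99 to 27.8 FPKM in Lgr5-DTR and 4.89 to 9.56 FPKM in wild type libraries, with none of any of the 3 lists at 0 throughout. Nearly all of that fibroblast sum was Dcn, at a mean of 426 FPKM in Lgr5-DTR and 818 FPKM in wild type basal cells. Of the 7 fibroblast markers, 6 were below 1 FPKM in every Lgr5-DTR basal library and 5 in every wild type one. Most of the smooth muscle sum was Tagln, at a mean of 7.36 FPKM in Lgr5-DTR and 28.8 FPKM in wild type basal cells. Of the 7 smooth muscle markers, 4 were below 1 FPKM in every basal library of either genotype. Among those 4, the means of Actg2 and Lmod1 were higher in Lgr5-DTR than in wild type. The part of these markers in the member values was not tested.

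**Figure D3:**
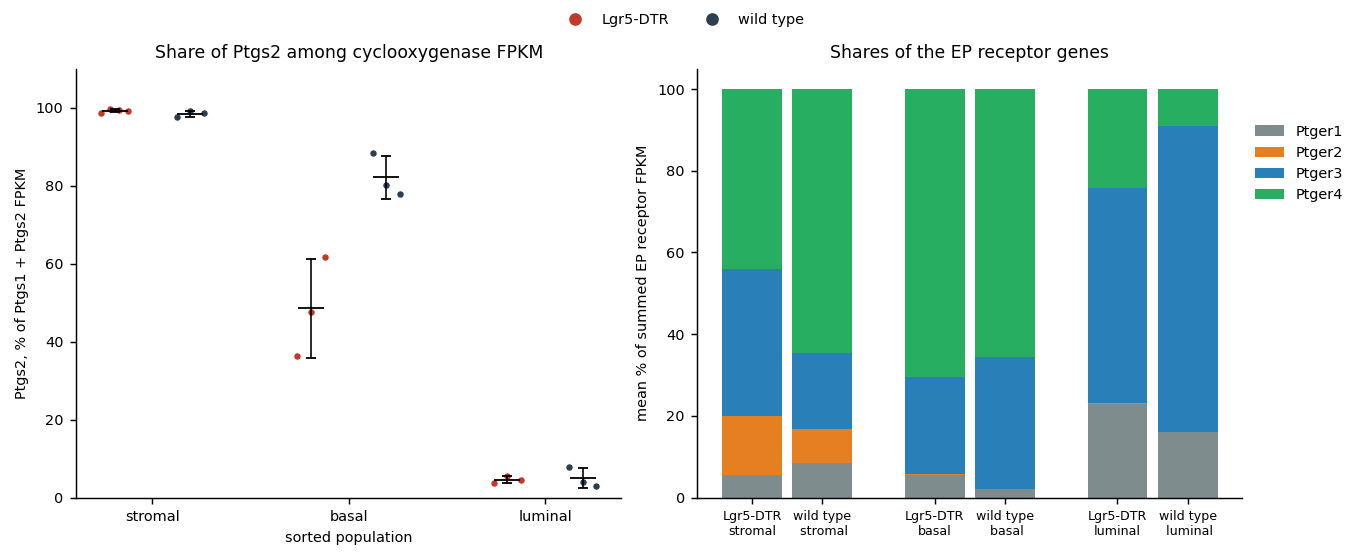
Left, Ptgs2 as a percent of the summed FPKM of Ptgs1 and Ptgs2 in each library, with the group mean and SD. Right, the mean percent of the summed FPKM of the 4 prostaglandin E2 receptor genes held by each in the 6 groups, with Lgr5-DTR left of wild type. The basal groups do not overlap on the left, at means of 48.5% in Lgr5-DTR and 82.1% in wild type cells, and on the right Ptger3 holds 52.7% in Lgr5-DTR and 74.9% in wild type luminal cells.

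In luminal cells of Lgr5-DTR mice, Ptges and Ptger3 were lower than in every wild type luminal library. Ptges stood at 38.1, 30.0 and 27.01 FPKM in Lgr5-DTR luminal libraries and at 53.4, 77.8 and 63.0 FPKM in wild type luminal libraries (log2 difference -1.005, SE 0.20). Ptger3 stood at 19.3, 14.6 and 24.5 FPKM in Lgr5-DTR luminal libraries and at 38.7, 52.9 and 38.0 FPKM in wild type luminal libraries (log2 difference -1.12, SE 0.22). Neither gene overlapped between the groups. Ptger4 stood at 8.03, 8.47 and 9.84 FPKM in Lgr5-DTR luminal libraries and at 8.09, 2.41 and 4.70 FPKM in wild type luminal libraries, where replicate 1 reached the Lgr5-DTR range (log2 difference 0.80, SE 0.33).

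With these levels the receptor mixture of luminal cells differed between the genotypes. Ptger3 made up 52.7% ± 5.45 of the summed receptor FPKM in Lgr5-DTR and 74.9% ± 6.98 in wild type luminal cells, and Ptger4 made up 24.2% ± 2.73 in Lgr5-DTR and 9.13% ± 5.56 in wild type luminal cells (SD, n = 3 each). The ranges of both shares were apart. The summed FPKM of the 4 receptors was 36.8 ± 7.65 in Lgr5-DTR and 57.4 ± 5.61 in wild type luminal cells.

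Both cyclooxygenases overlapped between the genotypes in luminal cells. Ptgs1 stood at 62.4, 47.2 and 34.2 FPKM in Lgr5-DTR luminal libraries and at 57.6, 49.1 and 35.5 FPKM in wild type luminal libraries, with a log2 difference of 0.00 (SE 0.25) whose sign depended on the library left out. Ptgs2 stood at 2.46, 2.72 and 1.60 FPKM in Lgr5-DTR libraries and at 4.96, 2.04 and 1.10 FPKM in wild type libraries (log2 difference -0.06, SE 0.37). Hpgd stood at 13.8, 15.2 and 39.8 FPKM in Lgr5-DTR libraries and at 18.3, 33.7 and 34.9 FPKM in wild type libraries, and Lgr5-DTR replicate 3 was the highest of all 6 (log2 difference -0.43, SE 0.41). In each of these 3 genes the difference was close to its SE or smaller.

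Of the 6 members tested in luminal cells, 2 were called lower (Ptges and Ptger3) and none higher, where 3.14% of the 10524 genes tested were called, 2.62% higher and 0.513% lower. Groups did not overlap in those 2, and in 27.1% of all genes tested, 17.4% higher and 9.63% lower. Both calls were lost with no filter. The call of Ptges was also lost in one fit of all 19 libraries, on leaving out Lgr5-DTR replicate 2 (-0.97) or wild type replicate 2 (-0.87) or 3 (-1.02), and that of Ptger3 on leaving out Lgr5-DTR replicate 1 (-1.13) or 2 (-0.94), or wild type replicate 2 (-0.97) or 3 (-1.21). Schwann cell markers were detected in the luminal sort, at a summed 61.0 to 164 FPKM in Lgr5-DTR and 28.2 to 50.3 FPKM in wild type libraries, with none of the 6 at 0. Macrophage markers summed to 21.4 to 97.0 FPKM in Lgr5-DTR and 16.7 to 25.0 FPKM in wild type luminal libraries. Fibroblast markers summed to 61.4 to 130 FPKM in Lgr5-DTR and 38.0 to 57.7 FPKM in wild type luminal libraries. The means of Col1a1, Col1a2 and Col3a1 were 32.2, 25.7 and 37.8 FPKM in Lgr5-DTR and 4.39, 5.30 and 15.2 FPKM in wild type. That of Dcn was lower in Lgr5-DTR (10.8 FPKM) than in wild type (20.5 FPKM). The remaining fibroblast markers, Pdgfra, Lum and Dpt, were below 1 FPKM in every luminal library. The lower luminal marker sum was mostly Pbsn, at a mean of 8849 FPKM in Lgr5-DTR and 19612 FPKM in wild type, whereas Krt8 (3030 FPKM in Lgr5-DTR and 1670 FPKM in wild type) and Krt18 (3773 FPKM in Lgr5-DTR and 2565 FPKM in wild type) had higher means in Lgr5-DTR. The part of all these markers in the member values was not tested.

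Set side by side, the genotype differences of Ptger3 were 1.15 in the stroma, -1.49 in basal and -1.12 in luminal cells. Those of Ptgs1 were -0.88 in the stroma, 0.99 in basal and 0.00 in luminal cells, and those of Ptges were 0.76, -0.77 and -1.005 in the same order. The differences between populations were not tested for these genes. In the order of group means, wild type luminal cells had the highest Ptger3 (43.2 FPKM) and did not overlap the next group, wild type basal cells (20.1 FPKM), and from there on wild type basal, Lgr5-DTR luminal (19.5 FPKM), Lgr5-DTR stromal (13.8 FPKM), Lgr5-DTR basal (6.63 FPKM) and wild type stromal cells (5.71 FPKM) formed a chain in which each range overlapped the next. For Ptgs1 the luminal groups of both genotypes overlapped at the top (47.9 FPKM in Lgr5-DTR and 47.4 FPKM in wild type cells), and below them Lgr5-DTR basal, wild type basal, wild type stromal and Lgr5-DTR stromal cells followed with no overlap between neighbours, although Lgr5-DTR basal (29.6 to 35.1 FPKM) reached into the range of Lgr5-DTR luminal cells (34.2 to 62.4 FPKM). For Ptger4 wild type basal cells (40.7 FPKM) stood apart from all others, and Lgr5-DTR basal cells (19.3 FPKM) fell between wild type (21.2 FPKM) and Lgr5-DTR stromal cells (16.6 FPKM), overlapping both.

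Across the 19 libraries the members correlated with each other mainly by population. Pearson's r of log2(FPKM + 1) was 0.96 between Ptger2 and Pla2g2e and 0.91 between Ptgis and Ptger2, all stromal genes, and it was -0.93 between Ptgs1 and Ptgis and -0.82 between Ptgs1 and Ptgs2. These values describe libraries that share a population and a genotype, and they carry no test. Likeness was measured against 8746 genes that averaged 5 FPKM or more in some group. Those most like Ptgis were Mfap5, Myoc and Lum (0.9968, 0.9965 and 0.9963), all expressed in the stromal sort. Those most like Pla2g2e were Ptger2 (0.96), the progesterone receptor gene Pgr (0.96) and Plin2, which encodes a lipid droplet protein (0.94), and those most like Ptger2 were Adgra1, Syt13 and Dio2 (0.99, 0.99 and 0.98).

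For the other members the closest patterns were as follows. Ptgs1 was most like Llgl2, a cell polarity gene (0.98), Arhgef16 (0.98) and Stx3 (0.98), and Ptgs2 was most like Ubtd2, Smoc2 and St3gal1 (0.97 each). Ptgds was most like the complement gene C7 and the procollagen enhancer gene Pcolce2 (0.96 each) and Spock2 (0.95). Hpgd was most like the fatty acid oxidation gene Hadh, the glycogen phosphorylase gene Pygb (0.96 each) and Acaa1a (0.95). Ptges was most like Csf3, which encodes a granulocyte growth factor (0.91), Stard5 (0.90) and Hs3st1 (0.88). Ptger3 had the loosest neighbours, Ube2h (0.89), Arg2 (0.86) and Brap (0.85), and Ptger4 was most like Ddx3x (0.95), Pom121 (0.94) and Zfp36l2 (0.93).

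Around the members, 59 other genes of the pathway were in the tables, in lists for substrate release, other prostanoid synthases, other prostanoid receptors, transport and breakdown, and lipoxygenases with leukotriene genes. In basal cells 4 of the 22 tested were called, 3 higher and 1 lower, where 11% of all genes were called, and all 4 belonged to transport or to the lipoxygenase list. Slco2a1, the transporter that takes up prostaglandins, stood at 52.9, 36.2 and 54.2 FPKM in Lgr5-DTR basal libraries and at 154, 134 and 99.1 FPKM in wild type basal libraries. It fell, by limma, with a log2 difference of -1.42 (SE 0.22, adjusted p = 0.00595), and was lower in 3 of 3 libraries. That call was lost in one fit of all 19 libraries (limma adjusted p = 0.144) and in no other alternative. Abcc4, which exports prostaglandin E2 among other anions, stood at 2.91, 7.83 and 5.43 FPKM in Lgr5-DTR basal libraries and at 0.860, 1.01 and 0.727 FPKM in wild type basal libraries. It rose, by limma, with a log2 difference of 1.70 (SE 0.29, adjusted p = 0.0083). Abcc4 overlaps the microRNA gene Mir6391 in the annotation, so its reads could be shared.

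In basal cells 2 of the 5 lipoxygenase and leukotriene genes tested rose. Ltb4r1, the high-affinity leukotriene B4 receptor gene, averaged 7.78 ± 3.47 FPKM in Lgr5-DTR and 2.24 ± 0.362 FPKM in wild type basal cells (log2 difference 1.37, SE 0.28, limma adjusted p = 0.0169). Alox12, the platelet-type 12-lipoxygenase gene, averaged 23.7 ± 0.893 FPKM in Lgr5-DTR and 15.9 ± 1.69 FPKM in wild type basal cells (log2 difference 0.55, SE 0.14, limma adjusted p = 0.0428). Neither gene overlapped between the genotypes. The Ltb4r1 call was lost on leaving out Lgr5-DTR replicate 2 (1.38), or wild type replicate 2 (1.46) or 3 (1.31), and the Alox12 call on leaving out Lgr5-DTR replicate 2 (0.55) or 3 (0.53), or wild type replicate 2 (0.56) or 3 (0.48). Both were lost with no filter, and that of Alox12 also in one fit of all libraries and with the low-data set as a covariate. The median log2 difference over the 22 genes was 0.15, and over all genes tested in basal cells 0.02.

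No other pathway gene was called in stromal cells (0 of 26) or in luminal cells (0 of 21), where limma gave 4 genes at an unadjusted p under 0.05 in each. In stromal cells the gene of smallest p in each list was Fam213b, a prostamide and prostaglandin F synthase, at 2.23 ± 0.702 FPKM in Lgr5-DTR and 5.79 ± 1.53 FPKM in wild type cells (log2 difference -1.08, limma adjusted p = 0.0890), Mgll, a monoacylglycerol lipase, at -0.77, the transporter Slco3a1 at -1.08, Ptgfrn, whose protein binds the prostaglandin F2α receptor, at -0.59, and the epidermal lipoxygenase gene Aloxe3 at -0.51. In luminal cells it was Alox12, at 82.2 ± 32.9 FPKM in Lgr5-DTR and 32.2 ± 8.25 FPKM in wild type cells (log2 difference 1.26, limma adjusted p = 0.0661), the carbonyl reductase gene Cbr1 at -0.48, Pla2g12a at -0.44, Abcc4 at -0.60 and the prostacyclin receptor gene Ptgir at 0.44. In basal cells the lists without a call had Pla2g4a (-0.48), Ptgfrn (0.71) and the aldose reductase gene Akr1b3 (-1.77) as their genes of smallest p, and Akr1b3 overlaps Gm6644 and is uncertain. The call of Alox12 in luminal cells appeared on leaving out Lgr5-DTR replicate 3 (1.62), or wild type replicate 1 (1.46), and in one fit of all libraries.

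Whether these genotype differences themselves differed between populations was tested for the other pathway genes as an interaction in limma. Abcc4 was called in 2 of the 3 pairs of populations, and no gene of the lists was called in the third, stromal against luminal, where 3.5% of all genes tested were. Its genotype difference in stromal minus that in basal cells was -2.27 (SE 0.40, adjusted p = 0.00307), and that in basal minus that in luminal cells was 2.30 (SE 0.41, adjusted p = 0.00392), where 3.4% and 3.57% of all genes tested were called. In FPKM, Abcc4 averaged 1.04 ± 0.416 in Lgr5-DTR and 2.09 ± 1.08 in wild type stromal cells, and 2.61 ± 0.684 in Lgr5-DTR and 4.48 ± 1.12 in wild type luminal cells. The interaction of Slco2a1 between stromal and basal cells, 1.29 (SE 0.80, adjusted p = 0.494), did not pass.

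**Figure D4:**
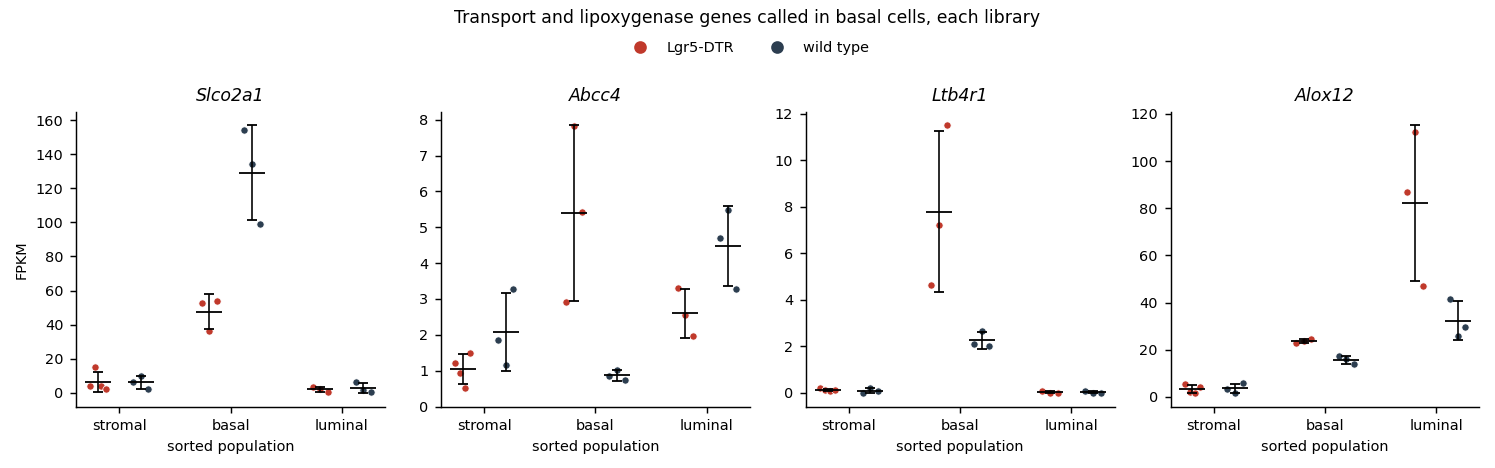
FPKM of the 4 other pathway genes called in basal cells, in each library by population, with Lgr5-DTR left of wild type and bars for the group mean and SD (n = 4 for Lgr5-DTR stromal cells, n = 3 for the others). Slco2a1 is highest in wild type basal cells, with 36.2 to 54.2 FPKM in Lgr5-DTR and 99.1 to 154 FPKM in wild type basal libraries, and the mean of Abcc4 is higher in Lgr5-DTR than in wild type basal cells and lower in the other 2 populations.

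In wild type cells 22 of the 28 other pathway genes tested were called for stromal minus basal, where 57% of all genes were, 22 of 28 for stromal minus luminal, where 67.8% were, and 19 of 28 for basal minus luminal, where 62.3% were. For substrate release, examples were Pla2g4a, the cytosolic phospholipase A2, at 15.2 ± 2.57 FPKM in stromal, 5.19 ± 1.06 FPKM in basal and 0.438 ± 0.442 FPKM in luminal cells, and Pla2g12a, a secreted phospholipase, at 14.1 ± 0.621 FPKM in stromal, 7.48 ± 0.445 FPKM in basal and 100.6 ± 14.7 FPKM in luminal cells. By limma, Pla2g4a was higher in stromal than in luminal cells by 3.53 on the log2 scale (SE 0.25, adjusted p = 9.53e-08), and Pla2g12a was lower by 2.74 (log2 difference -2.74, SE 0.17, adjusted p = 2.41e-08). Slco2a1 was basal, higher there than in luminal cells by 5.32 (SE 0.53, adjusted p = 1.18e-05), with 6.15 ± 3.63 FPKM in stromal, 129 ± 27.8 FPKM in basal and 2.90 ± 3.05 FPKM in luminal cells.

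Receptor genes and a breakdown gene outside the members gave further examples. Ptgir averaged 6.84 ± 4.44 FPKM in wild type stromal, 0.141 ± 0.0285 FPKM in basal and 1.30 ± 0.628 FPKM in luminal cells, and the stromal minus basal difference was 2.56 (SE 0.42, limma adjusted p = 0.000243). The leukotriene B4 receptor genes Ltb4r1 and Ltb4r2 were basal, at 2.24 and 6.69 FPKM there against at most 0.144 FPKM on average in the other 2 wild type populations. Ptgr1, a reductase that inactivates prostaglandins and leukotriene B4, averaged 8.08 ± 1.27 FPKM in stromal, 3.42 ± 0.786 FPKM in basal and 17.6 ± 3.29 FPKM in luminal cells, so that it, like Hpgd, was highest in luminal cells.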

How the data were processed

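RNA of flow-sorted basal, luminal and stromal mouse prostate cells had been amplified with a low-input full-length kit and sequenced on a HiSeq instrument, as the labels' protocols state. The authors deposited FPKM per RefSeq transcript, made with TopHat2 and Cufflinks on mm10 per the submitters' processing notes. Their versions are not given in the sources used here. A second deposited column, coverage (read depth per transcript), served only to estimate library depth, and a status flag is given too, per the file headers. Cufflinks divides reads between overlapping transcripts, and an FPKM of 0 can be a failed estimate.

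FPKM were summed per gene symbol. A gene was tested where at least 3 libraries reached 1 FPKM, on log2(FPKM + 1), in R 4.3.3 with limma 3.58.1 (robust, with a mean trend), each population alone, the 3 wild type populations in one fit, and interactions in one fit of all 19 libraries. Calls used a Benjamini-Hochberg adjusted p of 0.05 over all genes tested. A choice made after seeing the status column was to drop 7 genes whose estimate had failed or been capped (Cmss1, Filip1l, Tgm4, Ly6e, Amd1, Amd2 and 9530053A07Rik) wherever that happened. Joins used pandas 2.3.3 under Python 3.11.15, arithmetic numpy 2.4.6, figures matplotlib 3.10.9, and the blocked wild type fit statmod 1.5.0. Files give no counts, so no counting interval was computed.

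The members and the lists of other genes were chosen with earlier results of these data known. The rule for named genes took all 10 members, up to 4 called genes of smallest p per other list and comparison (else the 1 of smallest p), and the 3 most correlated genes per member, skipping predicted genes. Of the genes so named in the wild type comparisons, examples are given and the rest as counts. The symbols Prxl2b and Gpr44 were not found in the tables. The tests were checked on simulated data: the share of genes recovered at a simulated log2 change of 1 was 35% in stromal cells (10689 genes run), 56% in basal cells (9755) and 41% in luminal cells (10524). At a change of 2 these were 85%, 91% and 89%. Alternatives were another pseudocount (0.1), no filter, quantile and upper-quartile scaling, leaving out each library, a replicate block, one fit of all libraries, and the low-data set as a covariate. One result on another pathway gene is not reported here.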

Additional observations from a re-analysis of the deposited data

Results flagged for a closer look

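Abcc4, the prostaglandin exporter gene, had a genotype difference that differed between populations by limma's interaction test, by -2.27 on the log2 scale for stromal minus basal cells and by 2.30 for basal minus luminal cells. It was higher in Lgr5-DTR than in wild type basal libraries in 3 of 3, while its mean was lower in Lgr5-DTR stromal and luminal cells.

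Ptger3 was higher in every Lgr5-DTR stromal library than in every wild type one (1.15) and lower in every Lgr5-DTR basal library (-1.49) and every Lgr5-DTR luminal library (-1.12). Ptgs1 was lower in every Lgr5-DTR stromal library (-0.88) and higher in every Lgr5-DTR basal library (0.99). These differences between populations were not tested, since both genes were chosen with the values known.

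A single library stood apart from the other 3 in the Lgr5-DTR stromal group for 2 of 13 genes examined. For Hpgd the highest library, replicate 1, was separated by 0.862 of the group's range, and for Slco2a1 the highest library, replicate 2, by 0.841, where 0.829 is the limit for 4 samples. Chance flags about 1 in 20 groups.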

How the results depend on the processing

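Counts below are higher then lower, Lgr5-DTR relative to wild type. Called genes numbered 7 and 118 in stromal, 634 and 435 in basal and 276 and 54 in luminal cells. Without the filter they were 1 and 35, 310 and 182, and 0 and 4, with no stromal and no luminal member called, 0 basal members higher and 1 basal pathway gene higher. Quantile scaling gave 69 lower in stromal cells (0 members higher) and 144 higher in luminal cells, upper-quartile scaling 67 lower in stromal cells, and both 2 basal pathway genes lower. One fit of all 19 libraries gave 62 and 304 in stromal cells (3 members higher, 2 pathway genes lower) and 724 and 147 in luminal cells (1 pathway gene higher, 1 member lower). The low-data set as covariate gave 3 and 46 in stromal cells (0 members higher, since it removes Lgr5-DTR replicate 3, the only library of that set there) and 488 and 262 in luminal cells. The cause of the other shifts was not tested.

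Same-numbered libraries did not deviate together throughout (correlations of -0.49 to 0.46), so pairing by number was not shown. Correlations over so few libraries cannot exclude it either. The replicate block, in which Lgr5-DTR stromal replicate 4 has no partner, gave 314 and 727 in stromal cells (4 and 3 members, 1 and 4 pathway genes), 151 and 62 in basal cells (0 and 0 members, 1 pathway gene higher) and 617 and 138 in luminal cells (1 pathway gene higher). In basal cells the replicate block thus ended the calls of the members Ptgs1, Ptges, Ptger3 and Ptger4, and of Ltb4r1 and Alox12. Blocking on the title number, at a consensus correlation of 0.178, moved no wild type count by over 1.5 times.

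Leaving out each library gave 1 to 43 higher and 30 to 189 lower genes in stromal cells (members 0 to 3 and 0 to 1, pathway 0 and 0 to 1), 177 to 944 and 105 to 1287 in basal cells (members 0 to 1 and 2 to 4, pathway 1 to 4 and 1 to 3), and 0 to 611 and 0 to 265 in luminal cells (members 0 and 0 to 2, pathway 0 to 2 and 0). In the wild type comparisons it gave 2439 to 3356 and 2670 to 3212 for stromal minus basal (members 0 to 4 and 3 to 4, pathway 9 to 14 and 4 to 8), 2431 to 3272 and 3823 to 4517 for stromal minus luminal (members 2 to 6 and 3, pathway 5 to 9 and 11 to 13) and 2479 to 3071 and 3467 to 4364 for basal minus luminal (members 3 and 3, pathway 5 to 8 and 9 to 13). With 1 stromal library out, Ptgds, Ptgis and Ptger2 miss the filter by construction.

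No called value changed sign under any alternative run. Scaling shifts the median difference of all genes, which is -0.09 in stromal and 0.10 in luminal cells as deposited and 0.03 and -0.04 after quantile scaling. Abcc4 in basal cells was called under all 13 alternatives, at 1.43 to 2.41.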
